A study of Mus musculus with 4 samples.

Results

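The glycolytic isozymes described here are 8 mouse genes, taken by their gene names on the array: the hexokinases Hk1 and Hk2, the phosphofructokinases Pfkl and Pfkm, the aldolase Aldoa, the pyruvate kinases Pklr and Pkm2 and the lactate dehydrogenase Ldha. They are 8 of 36161 gene names on the array, and 12 probes in 21 spots measured them. The study asked how gene expression differs in the liver of mice that are small at birth without any intervention. Whole liver of C57BL/6J mice, labelled embryonic day 20, was measured on 4 Agilent arrays: microsomic female (MF), microsomic male (MM), control female (CF) and control male (CM). Microsomic animals had a birth weight in the lowest part of the range for their gender in the colony, and controls were littermates of usual weight. No gene was altered and no agent was given to any group. The methods describe newborn C57BL/6 N mice, which differs from the labels, and do not say whether the RNA of an array came from 1 animal or several. They also describe independent replicate experiments for each group, whereas the files hold 1 array per group, so what each array value stands for is not settled by these sources. With 1 array per group no p-value can be given for a pair of arrays.

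Glycolysis breaks glucose down to pyruvate, and several of its steps can be run by more than 1 enzyme encoded by separate genes or separate transcripts. The fetal liver, which also makes blood, uses forms found in most tissues, among them Hk1, Hk2, Aldoa and Pkm2. The adult hepatocyte uses liver forms, among them Pklr, the pyruvate kinase gene shared by liver and red cells. Pfkl is the liver phosphofructokinase and Pfkm the muscle one, and Ldha converts pyruvate to lactate.

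The probes are 60-base oligonucleotides, and their positions on the mm9 build come from the annotation in the array files. Probe sequences picked by hand, of Pklr, Hk1, Ldha, Pfkl and Hk2, are shown from their 5′ ends. None is shown for Aldoa, Pfkm or Pkm2. The Hk1, Pklr and Ldha probes shown at full length are followed by the first 30 bases of the others. Capitals mark windows of 5 bases that hold only C and T with at least 3 C. The Pklr probe spans 519 bases of chromosome 3, chr3:88948907-88949425, on the plus strand. The Hk1 probes lie on the minus strand at chr10:61732717-61732776 and chr10:61731230-61731288. The Ldha probe lies on the plus strand at chr7:54103010-54103069. The Pfkl probe lies at chr10:77450926-77450985 and the Hk2 probe at chr6:82675056-82675115, both on the minus strand. Whether these positions are in exons or untranslated regions was not determined here.
Pklr A_51_P176042: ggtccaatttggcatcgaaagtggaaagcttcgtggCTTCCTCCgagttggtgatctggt
Hk1 A_55_P2118843: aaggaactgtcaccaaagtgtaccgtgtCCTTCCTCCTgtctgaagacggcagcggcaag
Ldha A_55_P2141876: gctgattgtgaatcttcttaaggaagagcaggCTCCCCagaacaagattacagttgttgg
Hk1 A_55_P2037398: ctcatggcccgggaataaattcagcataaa
Pfkl A_51_P310896: ccgcaccttgagcatagacaagggtttctg
Hk2 A_51_P204080: tagtgagcgttttgtcatcatgtacagtag

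The windows, counted on the printed strand with overlaps, were absent from 53.1% of the probes compared between MF and CF. Of probes with 4 or more windows, 23.9% were over 1.5-fold higher in MF than in CF, against 18.2% of those with none. Between MM and CM the order was the other way, with 14.0% of probes over 1.5-fold higher in MM at 4 or more windows and 19.7% at none. The Hk1 probe above held 5 windows and the Pklr probe 3, while the whole Pfkl and Hk2 probes held none. The part of these windows in the isozyme results was not tested.

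Levels are log2 processed signals from which the 75th percentile of each array was taken away, and a difference is the microsomic minus the control array of the same gender. All 21 spots were well above background on all 4 arrays and none was saturated. Mean signals of the 12 probes ran from 543 to 375346 intensity units. The scanner software gave an error of 0.14 to 0.15 on the log2 scale for every probe on every array. This near-constant value was below the SD between repeated spots of an array, 0.23 in MM to 0.30 in CM. A single spot of a repeated probe had a difference with an SD of 0.34 for MF minus CF and 0.38 for MM minus CM, over 238 probes of 8 or more spots. This SD covers spots within an array, not animals. Every isozyme probe other than that of Pfkm was 1 spot, so this SD bears on its differences, also on those past 1.5-fold. All 4 arrays lay on 1 slide, where gender went with the row and microsomia with the column, so position cannot be told apart from either. Levels of different probes are not set against each other, since probes differ in how brightly they report the same amount of RNA.

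In females, 5 of the 8 genes were over 1.5-fold higher in the microsomic array and none was over 1.5-fold lower. Of all 25536 genes compared between MF and CF, 19.9% were higher and 21.0% lower by that measure. By probe, 7 of 12 were higher and none lower, against 19.1% higher and 22.3% lower of 34973 probes. The median difference of the 8 genes was 0.79, beside -0.06 for all genes. In males, 1 gene was over 1.5-fold higher in the microsomic array (Hk2) and 2 were over 1.5-fold lower (Pfkl and Pklr), against 17.7% higher and 23.1% lower of 26313 genes. By probe, 1 of 12 was higher and 2 lower, against 17.8% and 23.3% of 36585 probes. The median over the 8 genes was -0.13, beside -0.01 for all genes. The counts in females depended on the scaling between arrays: with quantile normalization, 3 of the 8 genes were over 1.5-fold higher in MF and 2 lower (Hk1 and Ldha), against 17.6% higher and 21.2% lower of all genes in that setting, so the lower count was near the background. Without scaling, 5 of 8 were higher in MF against 35.8% of all genes. In the same setting 3 of 8 were higher in MM against 44.8% of all genes, a share no larger than the background, and none was lower against 12.4%.

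**Figure D1:**
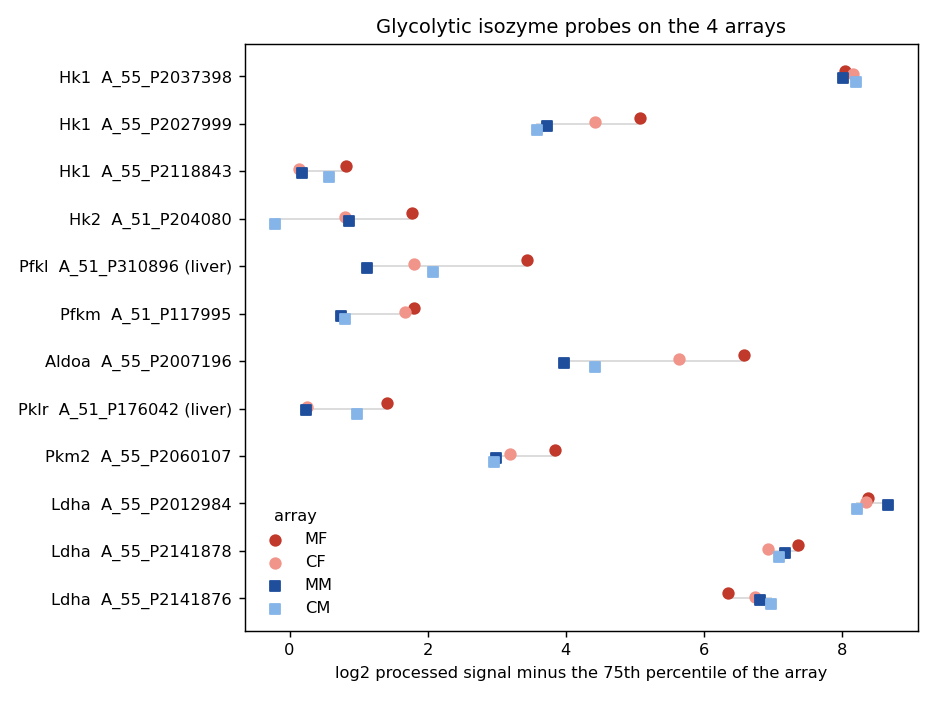
Level of each probe (log2 processed signal relative to the 75th percentile of its array) on the 4 arrays, with circles for females, squares for males, dark colours for microsomic and light for control; rows are probes and are not comparable in level with each other. The MF point of Pfkl stands at 3.44, with the other 3 arrays between 1.12 and 2.08.

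Hexokinases trap glucose in the cell by phosphorylating it. Hk2, the form found mainly in muscle and growing tissues, was higher in the microsomic array of both genders. Its level was 1.77 in MF and 0.80 in CF, and 0.87 in MM and -0.21 in CM. MF was thus 1.96-fold above CF, and MM was 2.11-fold above CM. Across the other processing settings the Hk2 difference stayed between 0.91 and 1.37 in females and between 0.86 and 1.63 in males, past 1.5-fold in each. Hk2 was the single gene of the 8 over 1.5-fold higher in both genders, where 3.18% of 23966 genes were.

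Hk1, the hexokinase of most tissues, gave different results by probe. Its brightest probe had a level of 8.04 in MF, 8.15 in CF, 8.01 in MM and 8.21 in CM. The differences, -0.11 and -0.20, were smaller than the spread of a single spot. A dimmer probe, A_55_P2027999, stood at 5.07 in MF, 4.42 in CF, 3.74 in MM and 3.58 in CM, a difference of 0.65 in females and 0.16 in males. The dimmest, A_55_P2118843, stood at 0.82 in MF, 0.14 in CF, 0.19 in MM and 0.56 in CM, a difference of 0.68 in females and -0.38 in males. In females the dimmer Hk1 probes were thus both over 1.5-fold higher in MF while the brightest was not, and which transcripts each probe detects was not tested. In 3 of 11 other settings the brightest probe was over 1.5-fold lower in MF, with differences of -0.87 with quantile normalization, -0.94 with normexp and quantile normalization and -0.66 with cyclic loess, which was chosen after seeing the data.

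Phosphofructokinase commits sugar to glycolysis. The liver form Pfkl had a level of 3.44 in MF and 1.81 in CF, and 1.12 in MM and 2.08 in CM. MF was 3.09-fold above CF, and CM was 1.95-fold above MM, so the microsomic arrays held the highest and the lowest of the 4 values. The female difference stayed between 1.15 and 2.03 in the other settings. The male difference ranged from -1.06 to -0.23, and it was under 1.5-fold without scaling and with background correction by normexp.

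The muscle form Pfkm was printed in 10 spots, of which 8 were used because 2 carried an outlier flag. Over these spots its level was 1.80 ± 0.15 in MF, 1.67 ± 0.13 in CF, 0.75 ± 0.10 in MM and 0.81 ± 0.36 in CM (SD over 8 spots of the same array). The difference over spots was 0.13 ± 0.13 in females and -0.06 ± 0.36 in males (SD, 8 spots). Over single spots the difference ran from -0.15 to 0.29 in females and from -0.68 to 0.59 in males. The SD is that of single spots and not the error of a mean over 8 spots. All 8 spots of each female array were above all spots of both male arrays.

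**Figure D2:**
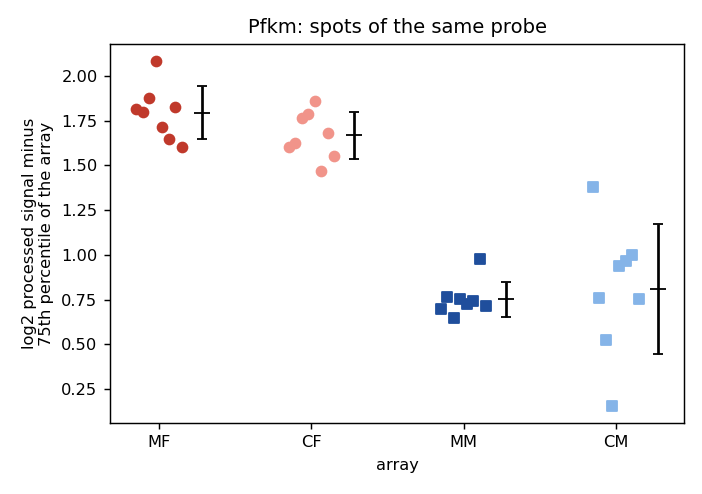
Level of each of the 8 spots of the Pfkm probe (log2, relative to the 75th percentile of its array) on the 4 arrays, with the mean and SD over spots beside them; spots are repeats on 1 array, not replicate animals. The female spots lie between 1.47 and 2.08 and the male spots between 0.16 and 1.38.

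Aldolase splits the doubly phosphorylated sugar. Aldoa, the form of muscle and most fetal tissues, had a level of 6.58 in MF and 5.64 in CF, and 3.97 in MM and 4.43 in CM. MF was 1.93-fold above CF, and the male difference was -0.46, under 1.5-fold. With normexp and quantile normalization the male difference was -1.11, over 1.5-fold lower in MM. With quantile normalization the female difference was 0.27, under 1.5-fold. MF was the highest of the 4 arrays, and both female arrays were above both male arrays.

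Pyruvate kinase makes pyruvate and ATP in the last step. Pklr, the liver form, had a level of 1.41 in MF and 0.26 in CF, and 0.24 in MM and 0.97 in CM. MF was 2.23-fold above CF and CM was 1.65-fold above MM. The female difference stayed between 1.04 and 1.56 in the other settings, and the male difference ranged from -0.86 to -0.17 and was under 1.5-fold in 3 of 11. Pkm2, the name the array gives the gene of the muscle and fetal forms, had a level of 3.84 in MF and 3.20 in CF, and 2.98 in MM and 2.96 in CM. MF was 1.56-fold above CF, and the male arrays differed by 0.03. The female difference ranged from 0.46 to 1.04 and was under 1.5-fold in 3 of 11 other settings. Whether the probe separates the splice forms of this gene was not determined.

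Ldha, which turns pyruvate into lactate, was under 1.5-fold in both genders at all of its probes with the scaling used here. The brightest probe had a level of 8.37 in MF, 8.35 in CF, 8.66 in MM and 8.22 in CM, a difference of 0.03 in females and 0.44 in males. The probe A_55_P2141878 stood at 7.36, 6.93, 7.17 and 7.08 in that order, a difference of 0.43 and 0.09. The probe A_55_P2141876, whose sequence is given above, stood at 6.35, 6.74, 6.82 and 6.97, a difference of -0.39 and -0.15. The 3 probes differed in direction in both genders. The brightest probe passed 1.5-fold in some other settings. In females its difference was -0.71 with quantile normalization and -0.93 with normexp and quantile normalization. In males it was 0.68 with median centring, 0.73 with quantile normalization, 1.003 without scaling and 0.65 with the position trend removed.

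Taken by class, the 2 liver isozymes, Pfkl and Pklr, were both over 1.5-fold higher in MF than CF and both over 1.5-fold lower in MM than CM. The 6 fetal or general isozymes (Hk1, Hk2, Pfkm, Aldoa, Pkm2 and Ldha) had a median of 0.38 in females and -0.02 in males. The medians of all genes were -0.06 and -0.01. Of the 6, 3 were over 1.5-fold higher in MF and 1 in MM, against 19.9% and 17.7% of all genes. Over the other settings the median of these isozymes ranged from 0.19 to 0.79 in females and from -0.11 to 0.54 in males. Both upper ends came without scaling, where the median of all genes was 0.34 in females and 0.52 in males. The male upper end was thus near the median of all genes.

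A shift toward the general form would show as a general isozyme whose difference exceeds that of its liver partner. Pfkm is the muscle form, so the pair of Pfkm and Pfkl cannot show a fetal shift. Of the 2 pairs of the same step, the difference of the general isozyme minus that of the liver isozyme was below 0 for both in females. It was -0.51 for Pkm2 and Pklr and -1.50 for Pfkm and Pfkl. In males both were above 0, at 0.75 for Pkm2 and Pklr and 0.90 for Pfkm and Pfkl. The female shift of Pkm2 and Pklr ranged from -0.97 to -0.10 over the settings, and that of Pfkm and Pfkl from -1.50 to -1.19. The male shifts ranged from 0.46 to 0.82 and from 0.38 to 0.94 in that order. Both male shifts were lowest, and under 1.5-fold, with normexp and quantile normalization. The female shift of Pkm2 and Pklr was under 1.5-fold with the scaling used here. A shift shows unequal change within an array, not that either isozyme kept its level.

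**Figure D3:**
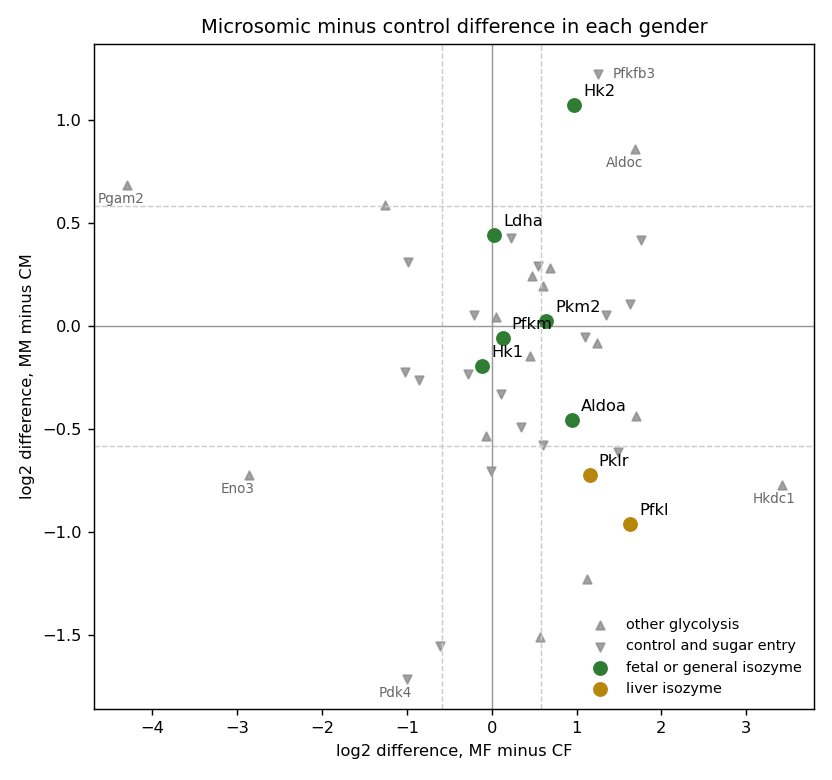
Microsomic minus control difference (log2) in females on the horizontal and in males on the vertical axis for the general isozymes (green), the liver isozymes (gold) and the other genes of the pathway (grey), with dashed lines at 1.5-fold; each point is 1 gene from 1 array per group. Hk2 lies at 0.97 and 1.07, and the liver isozymes lie to the right of 0 in females and below 0 in males.

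Between the genders, 2 of the 8 genes were over 1.5-fold higher in both female arrays than in both male arrays, a comparison added after the values were seen; 3.30% of 19298 genes were. The lower female Aldoa value was 2.31-fold above the higher male one, and the lower female Pfkm value was 1.81-fold above the higher male one. Pfkl and Pklr were over 1.5-fold higher in MF and lower in MM, as were 5.81% of 23966 genes. No difference between the female and male effects was tested, since each rests on 1 array per group.

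With the genders taken as replicates of microsomic and control in limma, which leaves 1 residual degree of freedom, no gene passed an adjusted p of 0.05. Of 19298 genes 0 were called (0%), and 851 had an unadjusted p under 0.05 in limma. That is a smaller share than the 0.05 of genes expected if none differed. Hk2 had a log2 difference of 1.02 with an adjusted p of 0.995 in limma. For male minus female 0% were called as well, with 1804 genes under an unadjusted p of 0.05, a larger share than 0.05. Aldoa had a log2 difference of -1.91 with an adjusted p of 0.337 in limma.

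**Figure D4:**
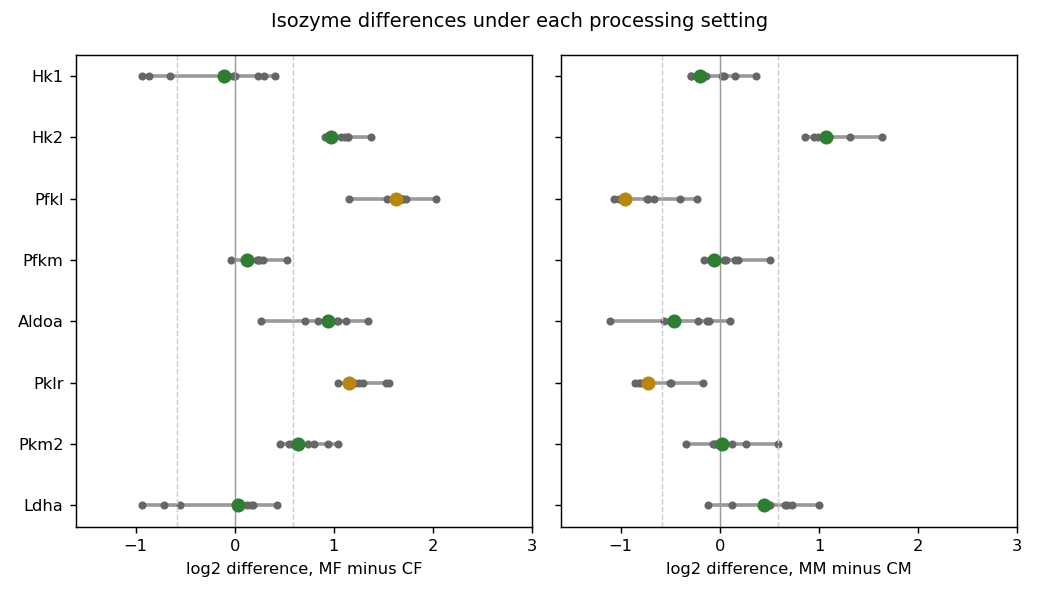
Difference (log2, microsomic minus control) of each isozyme in females on the left and in males on the right, with large points for the main setting, small points for the other settings and dashed lines at 1.5-fold. Hk2 stays past 1.5-fold in both panels, and Pfkl and Pklr stay past it in females only.

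Among the other 15 genes of glycolysis, 7 were over 1.5-fold higher and 3 lower in MF, with a median difference of 0.57, and 3 were higher and 4 lower in MM, with a median of -0.08. Against the shares of all genes given above (19.9% and 21.0% in females, 17.7% and 23.1% in males), the male counts were near the background. Aldoc, the brain aldolase, was higher in both genders. Its level was 5.67 in MF and 3.99 in CF, and 3.78 in MM and 2.92 in CM, or 3.21-fold and 1.82-fold. Eno3, the muscle enolase, was lower in both, at -0.71 in MF and 2.15 in CF, and -0.53 in MM and 0.20 in CM. CF was the highest array for Eno3 and also for Pgam2, the muscle phosphoglycerate mutase, which had a difference of -4.30 in females. The male difference of Pgam2 was at least 1.61-fold toward MM, since CM was not well above background. The largest rise in females was that of Hkdc1, a hexokinase relative, with a difference of 3.42. The largest fall in males was that of Eno2, the neuronal enolase, with a difference of -1.51.

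Of 19 genes of sugar entry, control and pyruvate use, 7 were over 1.5-fold higher and 5 lower in MF, with a median of 0.22. In MM, 1 was higher and 4 were lower, with a median of -0.22. The lower counts in both genders were near the shares of all genes, 21.0% in females and 23.1% in males. The shares of all genes that were over 1.5-fold higher were 19.9% in females and 17.7% in males. Pfkfb3, which makes the activator of phosphofructokinase, was higher in both genders. Its level was 1.47 in MF and 0.21 in CF, and 0.62 in MM and -0.60 in CM, or 2.38-fold and 2.34-fold. Pdk4, a kinase that inhibits pyruvate dehydrogenase, was lower in both. Its level was 3.23 in MF and 4.23 in CF, and 0.97 in MM and 2.69 in CM. Slc16a1, a lactate and pyruvate carrier, was also lower in both, with differences of -0.61 and -1.55. For Mlxipl, a glucose-sensing regulator that acts on Pklr, MF was 3.39-fold above CF, and the male difference was 0.42, under 1.5-fold. The Pklr differences were 1.15 in females and -0.73 in males, and a link between these genes was not tested. Pfkfb2 had the largest fall in females, with a difference of -1.02.

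The labelled tissue was checked against its markers. Of 12 hepatocyte markers, 11 were on the array and well above background in all samples, led by Alb, Fgb and Trf. Their summed signal was 4446 times the 75th percentile in MM and 6470 to 6993 times in the other arrays, so the lowest level was in MM. The erythroid list, led by Hbb-b1, Hba-a1 and Slc4a1, ran from 1500 in MM to 2830 in CF. As the RNA is of whole liver, fewer cells of a type and less RNA per cell cannot be told apart. Markers of other cell types also differed between the arrays. Of 11 granulocyte and macrophage markers, led by S100a9, S100a8 and Camp, 10 were over 1.5-fold higher in MF, against 19.9% of all genes. Camp was the exception, with a difference of -0.38. The list summed to 2058 in MF and 953 to 1300 elsewhere. In males 0 were over 1.5-fold higher and 2 lower in MM, against 17.7% and 23.1% of all genes, with a median difference of 0.06. The intestine markers, led by Fabp2, Lgals4 and Vil1, summed to 80.4 in MF, 32.4 in MM, 8.64 in CF and 7.45 in CM. Of these, 5 of 7 were over 1.5-fold higher in MF, against 19.9% of all genes. In males the list was mixed: 2 of 6 compared were over 1.5-fold higher in MM, among them Fabp2 at 4.98 in MM and 2.59 in CM, and 3 were lower, among them Vil1 and Lgals4. The shares of all genes in males were 17.7% higher and 23.1% lower. The median difference of the intestine list in males was -0.75. The heart markers, led by Actc1, Myl3 and Myl4, summed to 144 in CF and 2.25 to 5.90 elsewhere. Of these, 6 of 7 were over 1.5-fold lower in MF, against 21.0% of all genes. In males 1 was over 1.5-fold higher and 5 were lower in MM, against 17.7% and 23.1% of all genes. The skeletal muscle markers, led by Tnni2, Acta1 and Tnnc2, summed to 6.43 in CF and 1.07 to 2.18 elsewhere. Of 8 compared in females, 3 were over 1.5-fold lower in MF, against 21.0% of all genes, and the named markers were not among them. Eno3 and Pgam2 were also highest in CF. The part of these cell types in the isozyme results was not tested.

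**Figure D5:**
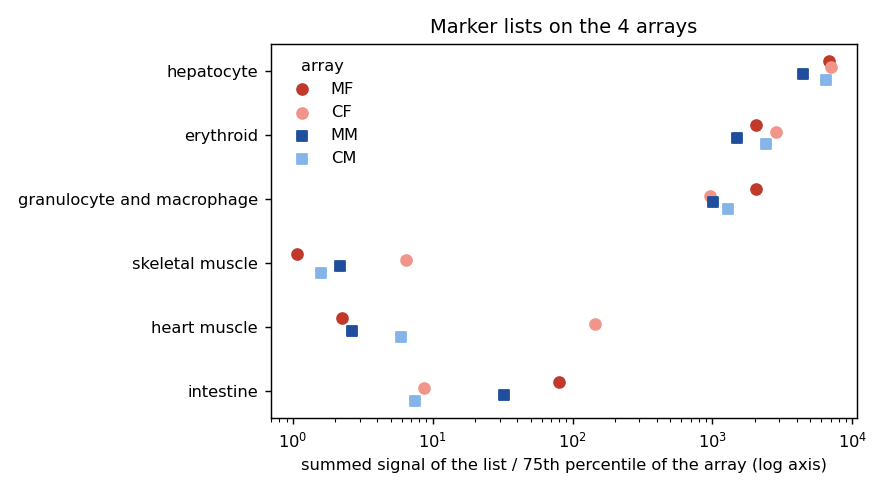
Summed signal of each marker list divided by the 75th percentile of the array, on a log axis, with 1 point per array. The heart list reaches 144 in CF alone, and the intestine list is highest in MF at 80.4.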

How the data were processed

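Total liver RNA of 4 samples was labelled and hybridized by the authors to 1-colour Agilent arrays. The deposited intensity of each spot is the processed signal of Agilent Feature Extraction 10.7.3.1, per the file headers, with background subtracted and a spatial trend divided out. The value table the authors deposited was equal to it in all 62976 spots of each array, so no scaling between arrays had been made. The log2 of the intensity, minus the 75th percentile of non-control spots on the array (893 in MF, 925 in MM, 676 in CF and 628 in CM), was used here. The 1754 spots that the software had flagged as outliers on 1 or more arrays were left out, and spots of a probe were averaged. A gene was its probe with the highest mean. It was compared where at least 1 array of a pair was well above background. Where only 1 was, the difference was a bound, and a bound that pointed to the dim array as the higher gave no difference (431 genes in females, 1558 in males); these genes count among those compared and not in medians. Over genes well above background on both arrays, the median difference was -0.11 in females and -0.07 in males. Well above background were 56.1% to 65.3% of spots. The number of arrays limits the precision of every value.

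The threshold was 1.5-fold, with limma 3.58.1 and Benjamini-Hochberg adjustment for the fit over all genes. The 8 genes and all lists were chosen with earlier results of these data known. Named genes were the isozymes, pathway genes past 1.5-fold the same way in both genders, the largest rise and fall of each gender in each pathway list, and the 3 brightest markers of each list. The steps were tested on simulated data. Some isozymes of the planned comparison, and the results that need them, are not reported here.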

Additional observations from a re-analysis of the deposited data

Results flagged for a closer look

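These genes moved past 1.5-fold in opposite directions in the genders, each on 1 array per group, and the difference between the genders was not tested. Among the isozymes, the log2 difference in females and then in males was 1.63 and -0.96 for Pfkl and 1.15 and -0.73 for Pklr. Among the other genes of glycolysis it was 3.42 and -0.77 for Hkdc1, -4.30 and 0.69 for Pgam2, -1.26 and 0.59 for Ldhb, and 1.12 and -1.23 for Ldhd. For Slc16a3, a lactate exporter, it was 1.49 and -0.61. The male value of Pgam2 is a bound, since CM was not well above background for that gene. The male value of Ldhb lay at the 1.5-fold mark.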

How the results depend on the processing

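The differences of Hk2 in both genders, and of Pfkl and Pklr in females, stayed past 1.5-fold in the same direction under every alternative run. These included cyclic loess between arrays, which was added after seeing the data. Hk2, Pfkl, Pklr and Pkm2 each had 1 probe in 1 unflagged spot, well above background on all 4 arrays. Changing the filter on dim probes, averaging over probes or keeping flagged spots therefore could not alter their values. Those settings add nothing to how stable these genes are, also in the counts of settings given above. At a 2-fold threshold, 2 of the 8 genes were higher in MF and 1 in MM, against 10.8% and 8.04% of all genes, and none was lower, against 8.91% and 14.4%. The median of the general isozymes in females was 0.79 without scaling, beside 0.34 for all genes. Without scaling, limma called 9 of 19298 genes, all of them higher in the microsomic arrays. The median of all genes also moved up in that setting. Under the paper's own cut-off, read here as a raw limma p joined to a 1.5-fold change, 163 of 19298 genes were called. Of these, 72 were higher and 91 lower. The smallest adjusted p in that limma fit was 0.966, so none of the 163 passed an adjusted p of 0.05. Leaving out scaling moved the median of all genes by 0.39 in females and 0.53 in males, and median centring moved it by 0.22 in males. Removing the GC or position trend moved it by 0.14 or 0.13 in females, and dropping the filter on dim probes by -0.14 in females and -0.21 in males. Of all genes past 1.5-fold, the share that was higher was 48.5% in females and 43.4% in males. It was 79.7% and 78.4% without scaling, 60.7% in females with either trend removed, 61.0% in males with median centring, and 32.4% in males without the filter. Leaving out a replicate was not possible, since each group had 1 array. The limma fit with gender as a term pairs microsomic with control by gender. With microsomic or control as the only term, limma also called 0 of 19298 genes. In that fit 510 were under an unadjusted p of 0.05, again a smaller share than 0.05.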
